A study of Homo sapiens with 5 samples.

Results

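The genes described here are the long noncoding RNAs that the poly(A) site table names either as intergenic transcripts (symbols starting LINC) or as antisense transcripts (symbols ending in -AS and a digit). A gene was taken when its sites, each counted at its first listing, held 50 or more reads summed over the 5 libraries. This gave 183 of 31173 genes in the table, of which 54 were LINC genes and 129 antisense genes. In all, 905 genes carried such a name, and 800 of them had at least 1 read. The members were thus chosen by their read sum, and their being detected is no finding. LINC00888 and TFAP2A-AS1, with 49 reads each, lay just outside the minimum, and DNAJC27-AS1, with 50 reads, just inside.

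Long noncoding RNAs are capped transcripts made by RNA polymerase II, and many end, like mRNAs, by cleavage and addition of a poly(A) tail. Antisense RNAs are read from the strand opposite a named gene, often from the same promoter region in the other direction. Cleavage factor Im (CFIm) binds UGUA in RNA upstream of poly(A) sites through its CFIm25 subunit, and CFIm59 and CFIm68 are its alternative larger subunits. Where an RNA has several poly(A) sites, the choice between them sets which part of the transcript is kept.

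The study used HEK293T, cells derived from human embryonic kidney. It had 2 CFIm68 knockout (gene CPSF6) cell lines, 2 CFIm59 knockout (gene CPSF7) cell lines and 1 wild type control library. CRISPR/Cas9 made the knockouts, at positions the sources used here do not give. RNA 3′ ends were sequenced from an oligo(dT) primer, so a read marks a poly(A) site and a gene's reads do not grow with its length. All 3 groups share the parental line, and the spread behind every test below is that between the 2 lines of each knockout. The lone control was thereby taken to vary as they do.

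Libraries held 2727728 and 2078376 reads for the CFIm68 knockout, 1673687 and 2585923 for the CFIm59 knockout, and 2924266 for the control. CPSF6 stood at 47.9 and 45.7 CPM (reads scaled to library size, after TMM) in the CFIm68 knockout lines, 141 and 143 CPM in the CFIm59 knockout lines and 120 CPM in the control. CPSF7 stood at 127 and 204 CPM in the CFIm68 knockout lines, 68.5 and 55.5 CPM in the CFIm59 knockout lines and 59.8 CPM in the control, so its 3′ reads do not check that label. All 8 markers fixed for HEK293T had reads in each library. Blood markers summed to 1.04 and 0 CPM in the CFIm68 knockout lines, 0 and 0.414 CPM in the CFIm59 knockout lines and 0 in the control. Fibroblast markers summed to 10.8 and 11.99 CPM in the CFIm68 knockout lines, 9.01 and 18.2 CPM in the CFIm59 knockout lines and 12.4 CPM in the control, mostly from COL1A1, with COL1A2 at 0 reads in each library. The epithelial markers summed to 16.7 and 9.77 CPM in the CFIm68 knockout lines, 57.1 and 15.7 CPM in the CFIm59 knockout lines and 10.2 CPM in the control. The high value of CFIm59 knockout line 1 came from EPCAM, and its part in the results below was not tested.

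The members held 48556 reads, with a median of 124 reads a gene. They took 0.486% and 0.436% of nuclear reads in the CFIm68 knockout lines, 0.403% and 0.471% in the CFIm59 knockout lines and 0.410% in the control. C17orf76-AS1 (now SNHG29, a host gene of small nucleolar RNAs) held 11159 reads, or 23.0% of the members' reads. Without it the shares were 0.390% and 0.351% in the CFIm68 knockout lines, 0.323% and 0.334% in the CFIm59 knockout lines and 0.307% in the control. At the low end, 69 members had under 100 reads over all libraries.

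Some names in the table have since changed. Of 181 members found in RefSeq (GRCh38.p14), 56 have another symbol. Of these, 18 became divergent transcripts with symbols ending in -DT, all of them antisense names except LINC00894 (now EOLA2-DT). RefSeq lists 13 members as protein coding, among them LINC00998 (SMIM30), LINC00493 (SMIM26), LINC00116 (MTLN) and LINC00094 (BRD3OS). HNRNPU-AS1 is 1 of the 13. Its sites lie on the minus strand of chromosome 1, the same strand as HNRNPU, with its most used site 13022 nt downstream of that of HNRNPU. RefSeq gives its identifier to HNRNPU itself, so its values are not those of an antisense RNA.

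Sites listed also under another gene held 762 reads, 1.57% of the members' reads, in 20 members. All 290 reads of NCBP2-AS1 lay at sites listed also under NCBP2-AS2, and all 61 of LINC00852 at sites of RP11-438J1.1. LINC00472 shared 95 of 101 reads with RP3-331H24.5, CDKN2B-AS1 shared 168 of 297 with a lncRNA listed by clone name, HLA-F-AS1 shared 43 of 108 with MICE and RPL23AP1, and LINC00969 shared 42 of 178 with MUC20 and SDHAP2. Reads of these 6 members could belong to either gene.

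The annotated 3′ ends of some members with large changes in level or site use, all of them ends with AATAAA, are shown to let the poly(A) signal be seen. Each is the last 80 bases, 5′ to 3′, of a GENCODE v29 transcript on GRCh38. Capitals mark the poly(A) signal AATAAA and each TGTA, the DNA form of the CFIm25 motif. The transcripts lie at chr3:14942784-14947507 (minus strand, FGD5-AS1), chr7:79453960-79471208 (plus, MAGI2-AS3), chr15:41284005-41306534 (plus, OIP5-AS1), chr5:27472292-27496401 (plus, LINC01021), chr1:211382803-211435333 (plus, LINC00467), chrX:140709767-140772673 (plus, LINC00632), chr3:28574791-28758340 (plus, LINC00693) and chr5:37840438-37874894 (plus, GDNF-AS1).
FGD5-AS1: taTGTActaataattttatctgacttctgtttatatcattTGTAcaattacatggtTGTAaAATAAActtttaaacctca
MAGI2-AS3: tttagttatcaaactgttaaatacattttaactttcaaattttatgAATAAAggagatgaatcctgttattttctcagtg
OIP5-AS1: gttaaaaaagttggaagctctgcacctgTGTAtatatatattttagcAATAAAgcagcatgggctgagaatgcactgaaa
LINC01021: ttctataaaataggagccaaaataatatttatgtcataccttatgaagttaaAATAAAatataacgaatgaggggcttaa
LINC00467: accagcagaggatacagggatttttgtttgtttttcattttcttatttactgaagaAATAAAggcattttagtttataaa
LINC00632: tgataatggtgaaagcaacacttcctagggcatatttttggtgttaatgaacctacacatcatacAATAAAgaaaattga
LINC00693: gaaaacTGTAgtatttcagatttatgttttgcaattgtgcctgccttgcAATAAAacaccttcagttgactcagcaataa
GDNF-AS1: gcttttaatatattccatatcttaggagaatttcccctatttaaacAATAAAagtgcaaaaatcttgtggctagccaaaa

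Over all members with a transcript, AATAAA or ATTAAA lay in the last 50 bases of 114 of 181, or 63.0%, against 46.4% of all lncRNA genes and 72.0% of protein-coding genes in that annotation. TGTA lay in the last 100 bases of 42.0% of members, 37.0% of lncRNA genes and 51.1% of protein-coding genes. Among ends looked at but not printed, those of LINC00205 and of another FGD5-AS1 transcript held neither AATAAA nor ATTAAA in the last 80 bases. Those of LINC00338 and of another MAGI2-AS3 transcript held AATAAA. Searches were on the transcript strand only. Whether an annotated end is the site that was read was not tested, since the files' positions are on hg19.

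The members' reads lay less in last exons than those of other genes. Of the members' reads, 69.5% were at sites the authors classed as last exon, 30.02% at intron sites and 0.445% at upstream exon sites. Other nuclear genes had 89.4%, 9.34% and 1.29% at these classes. Of the 183 members, 76 had most of their reads at intron sites, LINC00657 and MEF2C-AS1 with 100% each. A member had reads at a median of 8 sites, and its most used site took a median of 66.0% of its reads.

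Levels in the CFIm68 knockout were compared with the control to ask which noncoding RNAs change when CFIm68 is lost. All 183 members passed the filter on low counts, and the quasi-likelihood test of edgeR (p adjusted over 14623 genes by Benjamini-Hochberg) called 4 higher and 4 lower. Over all genes tested, 1.57% were called higher and 2.03% lower, 3.6% in all, so the members' 4.37% lay near the background. Their median log2 difference was 0.20, against 0.02 over all genes. The libraries were bulk, and fewer cells with an RNA cannot be told apart from less of it per cell.

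LINC00632, the host transcript of the circular RNA CDR1-AS, had 20.1 and 12.4 CPM in the CFIm68 knockout lines and 3.76 CPM in the control, a log2 difference of 2.12 (SE 0.53, adjusted p = 0.0136). PDCD4-AS1, divergent from the tumour suppressor gene PDCD4, had 16 and 18.6 CPM in the CFIm68 knockout lines and 5.64 CPM in the control (log2 1.60, SE 0.46, adjusted p = 0.0362). PAXIP1-AS1 had 37.2 and 35.1 CPM in the knockout lines and 16.5 CPM in the control (log2 1.13, SE 0.33, adjusted p = 0.0413). In all 3, both knockout lines lay above the control. LINC00693 had 6.95 and 5.33 CPM in the CFIm68 knockout lines and no read in the control, where 3 reads would be 1.13 CPM. It was at least 5.44-fold higher (adjusted p = 0.00259).

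Among those that fell, LINC00324 had 19.8 and 6.22 CPM in the CFIm68 knockout lines and 48.5 CPM in the control (log2 -1.85, SE 0.35, adjusted p = 0.00077). LIMD1-AS1 had 7.64 and 5.77 CPM in the knockout lines and 20.3 CPM in the control (log2 -1.58, SE 0.43, adjusted p = 0.0257). TMEM161B-AS1 had 19.8 and 24.0 CPM in the knockout lines and 43.6 CPM in the control (log2 -1.0, SE 0.30, adjusted p = 0.0476). The lines of the knockout lay well apart in LINC00324. LINC00566, on chromosome 13, had 1.74 and 0.444 CPM, from 5 and 1 reads at its main site, in the CFIm68 knockout lines and 7.15 CPM in the control (log2 -2.57, SE 0.74, adjusted p = 0.0358).

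Most of these 8 calls ended when 1 line or the other was left out. Without CFIm68 knockout line 1 the calls of LINC00632, PAXIP1-AS1 and TMEM161B-AS1 ended (adjusted p of 0.186, 0.100 and 0.174), and the log2 value of LINC00324 was -2.95 and that of LINC00566 -3.85. Without line 2 the calls of LIMD1-AS1, LINC00566, PAXIP1-AS1 and PDCD4-AS1 ended (adjusted p of 0.0987, 0.157, 0.0586 and 0.105). Those of LINC00324 and LINC00693 stood without either line. DESeq2 called 0 members in this comparison, with 6 higher and 4 lower at an unadjusted p under 0.05.

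The loss of CFIm59 was read in the same way, from its 2 lines and the control library used above. Here 11 members were called higher and 17 lower, against 6.96% and 6.87% of all genes, so the members' 15.3% in either direction lay close to the 13.8% of all genes. LINC genes gave 7 higher and 9 lower of 54, and antisense genes 4 higher and 8 lower of 129. The median log2 difference was 0.07 in members and 0.02 over all genes.

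LINC01021 (now PURPL), an RNA known as a target of p53, stood out among those that fell. It had 1.80 and 2.9 CPM in the CFIm59 knockout lines and 42.5 CPM in the control, a log2 difference of -4.09 (SE 0.45, adjusted p = 1.31e-09). In the CFIm68 knockout lines it had 58.7 and 28.9 CPM. Its most used site, at 27496506 on the plus strand of chromosome 5 (hg19), held 2 and 2 reads in the CFIm59 knockout lines and 44 in the control. Its intron site at 27488953 held 0 and 0 reads in the CFIm59 knockout lines and 14 in the control.

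LINC00470 had 1.80 and 0.829 CPM in the CFIm59 knockout lines and 14.7 CPM in the control (log2 -3.52, SE 0.67, adjusted p = 0.000172). LINC00467 had 4.2 and 2.9 CPM in the CFIm59 knockout lines and 28.2 CPM in the control (log2 -3.01, SE 0.44, adjusted p = 1.45e-06). LINC00324 had 8.41 and 7.87 CPM in the CFIm59 knockout lines and 48.5 CPM in the control (log2 -2.57, SE 0.39, adjusted p = 2.79e-06). These 3 intergenic RNAs and LINC01021 kept their call under each alternative run, DESeq2 and every left-out line included.

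LIMD1-AS1 (log2 -2.75), LINC00263 (-2.46), LINC00505 (-2.23) and ZBED5-AS1 (-1.87) completed the 8 largest falls. LINC00324 and LIMD1-AS1 were thus called lower in each knockout against the same control library. Among members with more reads, LINC00669 (now MIR924HG, a microRNA host gene) had 38.4 and 36.0 CPM in the CFIm59 knockout lines and 97.4 CPM in the control (log2 -1.39, SE 0.28, adjusted p = 0.000287). LINC00493, which encodes the mitochondrial microprotein SMIM26, had 31.8 and 29 CPM in the CFIm59 knockout lines and 62.8 CPM in the control (log2 -1.05, SE 0.28, adjusted p = 0.0065). VPS9D1-AS1 had 27.0 and 32.3 CPM in the CFIm59 knockout lines and 60.5 CPM in the control (log2 -1.02, SE 0.30, adjusted p = 0.0155). With DESeq2 the calls of LIMD1-AS1, LINC00263, LINC00505, ZBED5-AS1, LINC00493 and VPS9D1-AS1 ended (adjusted p from 0.0510 to 0.231). That of LINC00669 stood. Without CFIm59 knockout line 2 the calls of LINC00493, LINC00505 and ZBED5-AS1 ended (adjusted p of 0.0617, 0.111 and 0.110), and LINC00263 had a log2 value of -3.43. Without line 1 that of VPS9D1-AS1 ended (0.0825), and LINC00505 had -3.17.

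Among those that rose, LINC00693 had 13.8 and 14.5 CPM in the CFIm59 knockout lines and no read in the control, at least 12.5-fold higher (adjusted p = 4.38e-06). GDNF-AS1, antisense to the gene of a neurotrophic factor, had 17 and 21 reads in the CFIm59 knockout lines and 2 in the control. The ratio was 12.4 with an exact 95% counting interval of 3.20 to 106 (edgeR adjusted p = 0.00392). DESeq2 did not call GDNF-AS1 (adjusted p = 0.120). LINC00665, on chromosome 19, had 15.6 and 46.0 CPM in the CFIm59 knockout lines and 3.76 CPM in the control (log2 3.07, SE 0.52, adjusted p = 2.51e-05). The 2 lines were far apart in LINC00665, and without line 2 its log2 value was 2.04.

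LINC00937 had 36.6 and 32.7 CPM in the CFIm59 knockout lines and 10.2 CPM in the control (log2 1.76, SE 0.37, adjusted p = 0.000677). H1FX-AS1 (log2 2.27), LINC00478 (2.03; now MIR99AHG, a microRNA host gene), LINC00680 (1.97) and FBXL19-AS1 (1.75) completed the 8 largest rises. LINC00094 (log2 1.21) and LINC00641 (1.22) also rose. With DESeq2 the calls of H1FX-AS1, LINC00478, LINC00680, FBXL19-AS1, LINC00094 and LINC00641 ended (adjusted p from 0.0679 to 0.375). Those of LINC00693, LINC00665 and LINC00937 stood. The calls of LINC00680 and FBXL19-AS1 ended without line 1 (adjusted p of 0.136 and 0.209) and that of LINC00641 without line 2 (0.142). NCBP2-AS1, the remaining member called higher, shares all its reads with NCBP2-AS2.

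**Figure D1:**
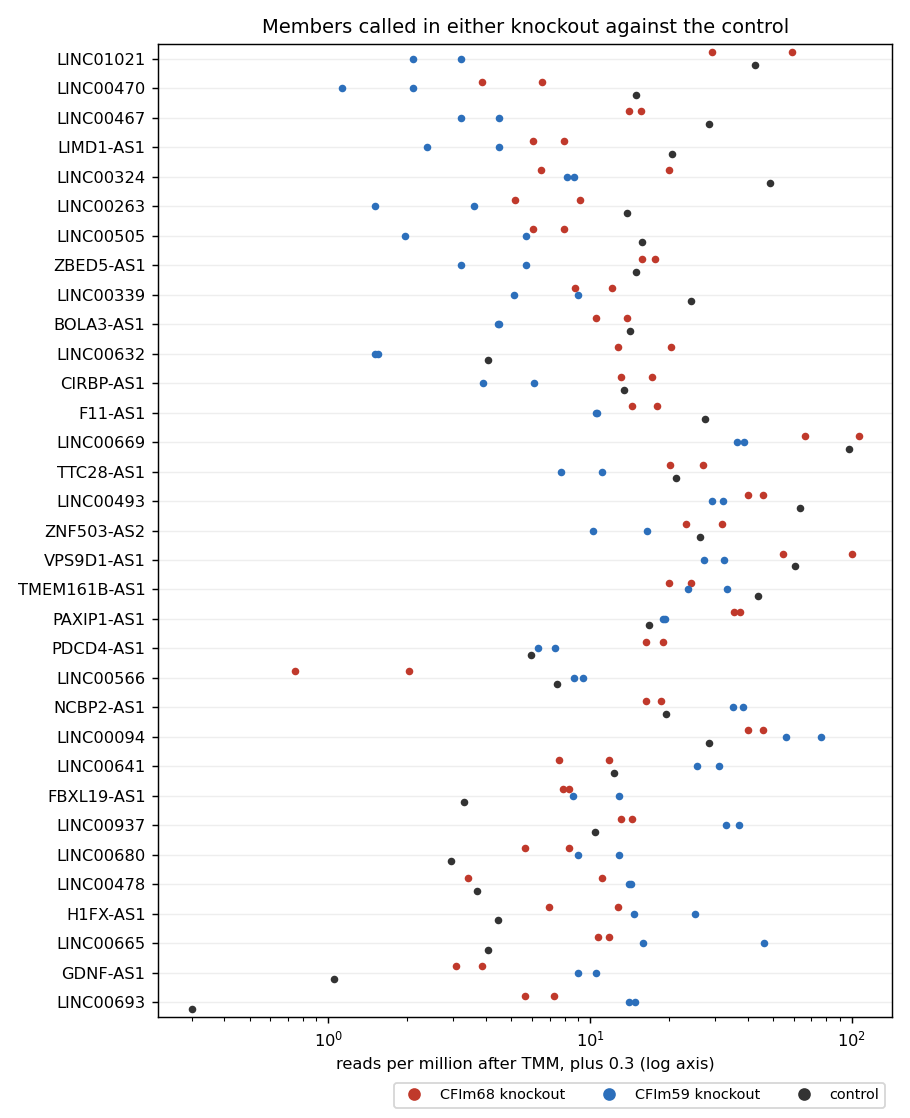
Level of each member called in either knockout against the control, in CPM after TMM plus 0.3, on a log axis. Each point is 1 library (CFIm68 knockout above CFIm59 knockout above control within a row), and rows run from the lowest to the highest log2 difference of the CFIm59 knockout over the control. LINC01021 stands at 1.80 and 2.9 CPM in the CFIm59 knockout lines, and LINC00693 has no control read.

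The 2 knockouts were compared with each other, where each group has 2 lines. The CFIm68 knockout was higher in 24 members and lower in 20, or 24.0% of members, against 9.42% higher and 10.3% lower over all genes. Antisense genes gave 18 higher and 8 lower of 129, and LINC genes 6 higher and 12 lower of 54. The median log2 difference was 0.16 in members and 0.00 over all genes. Without CFIm59 knockout line 1, CFIm59 knockout line 2 or CFIm68 knockout line 2, the members called lower numbered 13, 6 and 10. Those called higher were 16 or more without any 1 line.

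LINC01021 (log2 4.15, SE 0.41, adjusted p = 2.54e-11) and LINC00632 (log2 3.69, SE 0.55, adjusted p = 1.04e-06) were furthest on the CFIm68 side. LINC00632 had 20.1 and 12.4 CPM in the CFIm68 knockout lines and 1.20 and 1.24 CPM in the CFIm59 knockout lines. HOXB-AS3, an antisense RNA of the HOXB cluster, had 7.64 and 14.7 CPM in the CFIm68 knockout lines and 1.80 and 2.49 CPM in the CFIm59 knockout lines (log2 2.29, SE 0.54, adjusted p = 0.00157). The groups do not overlap in any of the 3. SH3BP5-AS1 (log2 2.15), LINC00467 (2.06), ZBED5-AS1 (2.04), LINC00470 (1.98) and ATP6V0E2-AS1 (1.98) followed.

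On the other side, HNRNPU-AS1 had 50.7 and 47.1 CPM in the CFIm68 knockout lines and 136 and 147 CPM in the CFIm59 knockout lines (log2 -1.53, SE 0.22, adjusted p = 3.33e-07). LINC00566 had 1.74 and 0.444 CPM in the CFIm68 knockout lines and 8.41 and 9.11 CPM in the CFIm59 knockout lines (log2 -2.87, SE 0.64, adjusted p = 0.000766). LINC00641 had 7.29 and 11.5 CPM in the CFIm68 knockout lines and 25.2 and 30.7 CPM in the CFIm59 knockout lines (log2 -1.60, SE 0.32, adjusted p = 0.000188). Again no library of 1 group reached the other. Over all members, 67 had both CFIm68 knockout lines above both CFIm59 knockout lines and 44 had both below, or 36.6% and 24% of members. Over all genes tested these shares were 29.9% and 29%, and 19.7% were called in either direction.

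Other values leaned on 1 line. ZFHX4-AS1 had 14.9 and 8.88 CPM in the CFIm68 knockout lines and 21.6 and 55.1 CPM in the CFIm59 knockout lines (log2 -1.70), LINC01033 had 7.29 and 7.99 CPM against 8.41 and 36.9 CPM (log2 -1.64), and GNAS-AS1, an imprinted antisense RNA, had 6.25 and 3.11 CPM against 8.41 and 21.1 CPM (log2 -1.66). Without CFIm59 knockout line 2 these calls ended, with log2 values of -0.84, -0.15 and -0.80 (adjusted p of 0.178, 0.913 and 0.477). That of LINC00665 ended too (log2 -0.51, adjusted p = 0.542), as did that of SH3BP5-AS1 (log2 1.38, adjusted p = 0.0711). Some calls ended while the difference stayed within 1.5 times its size. ATP6V0E2-AS1 had log2 1.55 without CFIm59 knockout line 2 (adjusted p = 0.169) and 1.81 without CFIm68 knockout line 1 (0.0880). LINC00470 had log2 2.51 and 1.45 without CFIm59 knockout line 1 and line 2 (adjusted p of 0.0543 and 0.318) and 1.48 without CFIm68 knockout line 1 (0.305). HOXB-AS3 had log2 1.78 without CFIm68 knockout line 2 (0.0617). GDNF-AS1, at log2 -1.57, lost its call without any 1 line, with log2 between -1.73 and -1.39. Without CFIm68 knockout line 1, LINC01021 had a log2 value of 3.53 and LINC00566 one of -4.15, both still called. SH3BP5-AS1 had 3.19 and LINC01033 -2.29 without CFIm59 knockout line 1, and GNAS-AS1 had -2.29 without CFIm68 knockout line 1.

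**Figure D2:**
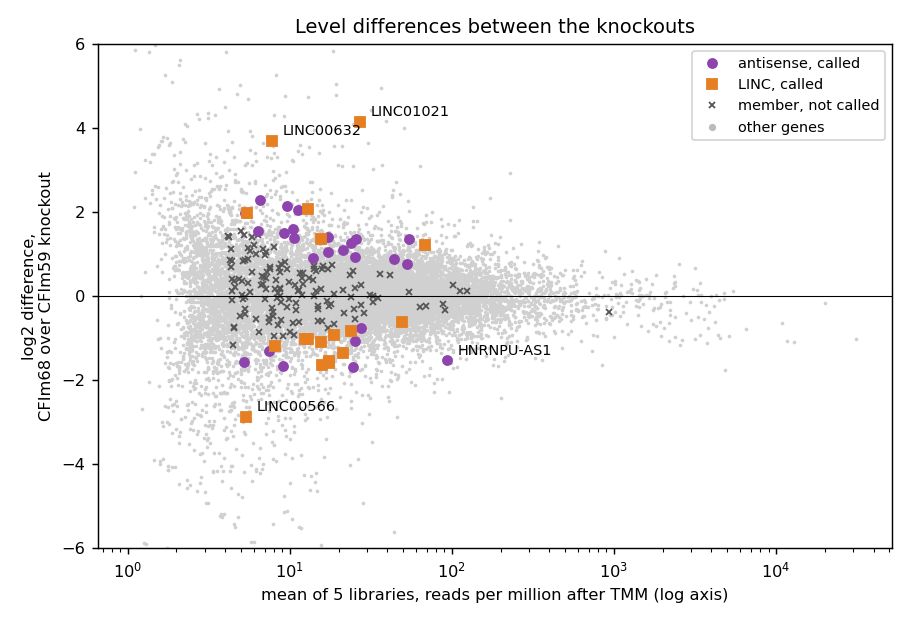
Log2 difference of the CFIm68 knockout over the CFIm59 knockout against the mean level of 5 libraries (CPM after TMM, log axis). Grey points are other genes, 95 of which lie outside the drawn range, crosses are members not called, circles are called antisense genes and squares called LINC genes. LINC01021 and LINC00632 lie highest among members, and LINC00566 lowest.

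Poly(A) site use was read from the 2 sites with most reads of each gene, the upstream one being called proximal. Of the 183 members, 46 had enough reads (11 LINC, 35 antisense), where both sites together averaged 20 or more reads a library and each 5 or more. Both sites lay in the last exon class in 54.3% of these pairs and in 79.9% of other genes' pairs, with a median distance of 1789.5 and 1375 nt. Median proximal use of members was 58.2% and 52.3% in the CFIm68 knockout lines, 46.0% and 53.7% in the CFIm59 knockout lines and 38.7% in the control. Other genes had 49.7% and 47.0% in the CFIm68 knockout lines, 28.6% and 28.9% in the CFIm59 knockout lines and 34.4% in the control.

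Against the control, 11 members moved toward proximal and 5 toward distal in the CFIm68 knockout, beside 25% and 3.1% of 5869 genes (28.1% in all). The median log2 change of the proximal to distal ratio was 1.12 in members and 0.61 over all genes. This gap depended on the pairs and the filter. With last exon sites only the medians were 0.67 and 0.70, and with no read minimum 0.35 and 0.34. A stricter read minimum, which left 5 members, gave 1.13 and 0.52. Without CFIm68 knockout line 1, 7 changed to proximal.

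FGD5-AS1 has its pair of sites at 14986531 and 14984291 (hg19) in the last exon, on the minus strand of chromosome 3. It used its proximal site for 43.0% and 26.4% of the pair's reads in the CFIm68 knockout lines (104 of 242 and 58 of 220), for 0% and 1.19% in the CFIm59 knockout lines (0 of 173, which allows up to 1.73%, and 3 of 252) and for 2.39% in the control (5 of 209, Wilson 95% interval 1.03 to 5.48). The change against the control was log2 4.39 (SE 0.63, adjusted p = 2.26e-07), and that against the CFIm59 knockout log2 6.13 (SE 0.59, adjusted p = 1.58e-12). Without CFIm59 knockout line 1 the difference between the knockouts was log2 5.40, and without line 2 the remaining CFIm59 knockout line has no proximal read. Its level, 115 and 128 CPM in the CFIm68 knockout lines and 91.4 CPM in the control, was not called different (adjusted p = 0.428). The annotated end printed above holds AATAAA and 3 TGTA.

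LINC00205, with its pair at 46716512 and 46717268 on chromosome 21, placed 84.0% and 87.5% of the pair's reads at the proximal site in the CFIm68 knockout lines, 0% and 15.8% in the CFIm59 knockout lines and 14.8% in the control (4 of 27, interval 5.92 to 32.5). The 0% was 0 of 29 reads, which allows up to 10.3%. The change against the control was log2 5.02 (SE 0.98, adjusted p = 6.16e-05). ENTPD1-AS1 (chromosome 10, intron sites at 97632797 and 97626928) used it for 63.0% and 71.4% in the CFIm68 knockout lines, 28.8% and 21.4% in the CFIm59 knockout lines and 21.0% in the control (log2 2.9, SE 0.62, adjusted p = 0.000228). Both CFIm68 knockout lines lay above all other libraries in these 2 members.

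OIP5-AS1, the human counterpart of the zebrafish RNA cyrano, whose mammalian forms bind miR-7, has last exon sites at 41591824 and 41598725 on chromosome 15. It used the proximal one for 42.1% and 36.1% in the CFIm68 knockout lines, 9.91% and 12.7% in the CFIm59 knockout lines and 18.1% in the control (log2 1.55, SE 0.46, adjusted p = 0.00804). ZEB1-AS1, divergent from the gene of a transcriptional repressor, used it for 58.8% and 62.5% in the CFIm68 knockout lines, 25% and 20% in the CFIm59 knockout lines and 16% in the control (log2 2.94, SE 0.90, adjusted p = 0.0101). GABPB1-AS1, LINC00324, PAXIP1-AS1, WAC-AS1, C17orf76-AS1 and LINC00665 also changed to proximal. In C17orf76-AS1 the change was small, 99.6% and 99.4% in the CFIm68 knockout lines and 98.5% in the control. When sites were limited to the last exon, a different pair gave log2 -0.71 (adjusted p = 0.468). Without CFIm68 knockout line 1 the calls of OIP5-AS1, PAXIP1-AS1 and C17orf76-AS1 ended (adjusted p of 0.0538, 0.0601 and 0.0906), and without line 2 that of PAXIP1-AS1 (0.0545). LINC00324 had log2 3.04 without line 1, and 2.31 with both lines. With DESeq2 the calls of OIP5-AS1, ZEB1-AS1, GABPB1-AS1, LINC00324, PAXIP1-AS1, C17orf76-AS1 and LINC00665 ended (adjusted p from 0.0512 to 0.177). Those of FGD5-AS1, LINC00205 and ENTPD1-AS1 stood.

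MAGI2-AS3 went the other way in the CFIm68 knockout. Its last exon sites lie at 79092304 and 79100512 on the plus strand of chromosome 7. It used the proximal one for 6.32% and 4.05% of the pair's reads in the CFIm68 knockout lines (6 of 95 and 3 of 74), 52.8% and 55.8% in the CFIm59 knockout lines and 50.7% in the control (38 of 75, interval 39.6 to 61.7). The change against the control was log2 -4.16 (SE 0.61, adjusted p = 3.44e-07), and that against the CFIm59 knockout log2 -4.38 (SE 0.56, adjusted p = 3.29e-09). Both CFIm68 knockout lines lay far below the other 3 libraries.

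ZSCAN16-AS1 used its proximal site for 70.0% and 60.0% in the CFIm68 knockout lines, 95.9% and 95.6% in the CFIm59 knockout lines and 88.5% in the control (log2 -1.96, SE 0.51, adjusted p = 0.00213). HNRNPU-AS1 used an intron site at 245013600 for 2.91% and 1.27% in the CFIm68 knockout lines, 21.0% and 23.1% in the CFIm59 knockout lines and 14.7% in the control (log2 -2.87, SE 0.72, adjusted p = 0.00148). NUTM2A-AS1, with an intron site too, used it for 14.1% and 6.15%, 27.4% to 30.6% and 33.8% in these groups (log2 -2.10, SE 0.61, adjusted p = 0.00625). LINC00338 (now SNHG20) was the fifth, with 22.0% and 6.67% in the CFIm68 knockout lines and 50% in the control. With last exon sites only, the pairs of HNRNPU-AS1 and NUTM2A-AS1 were other ones and gave log2 0.38 and 0.26 (adjusted p of 0.647 and 0.866). DESeq2 did not call ZSCAN16-AS1, NUTM2A-AS1 or LINC00338 (adjusted p of 0.0574, 0.101 and 0.0729). Without CFIm68 knockout line 1 the log2 values of HNRNPU-AS1, NUTM2A-AS1 and LINC00338 were -3.61, -2.93 and -3.73, all called, and LINC00338 had -1.81 without line 2.

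Against the control, 3 members moved toward proximal and 1 toward distal in the CFIm59 knockout, beside 0.988% and 5.06% of all genes (6.05% in all). The median change was 0.48 in members and -0.34 over all genes. LINC00665 had an intron site, at 36815811 on chromosome 19, with 23 and 90 reads in CFIm59 knockout line 1 and line 2, 10 and 11 in those of the CFIm68 knockout and 0 in the control. Its last exon site at 36803979 held 0 and 5 reads in the CFIm59 knockout lines, while the CFIm68 knockout lines had 6 and 7 and the control 9. The intron site thus took 100% and 94.7% of the pair in CFIm59 knockout lines, then 62.5% and 61.1% in CFIm68 knockout lines, against 0 of 9 reads in the control, which allows up to 33.3% (edgeR adjusted p = 4.11e-05 for the CFIm59 knockout and 0.0056 for the CFIm68 knockout).

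TMEM161B-AS1, with its pair 149012 nt apart, used its proximal site for 100% and 72.4% in CFIm59 knockout lines. The 100% was 14 of 14 reads, which allows up to 21.4% distal. Its proximal use was 64.5% and 51.6% in CFIm68 knockout lines and 31.5% in the control (edgeR adjusted p = 0.00547 for the CFIm59 knockout). LIPE-AS1, with its pair 149305 nt apart, used its proximal site for 94.6% and 96.4% in the CFIm59 knockout lines and 71.1% in the control (log2 3.10, SE 0.91, adjusted p = 0.0304). LINC00338 changed to distal, with 17.4% and 15.9% in the CFIm59 knockout lines and 50% in the control (log2 -2.32, SE 0.61, adjusted p = 0.0139). The calls of TMEM161B-AS1 and LIPE-AS1 ended without line 1 (adjusted p of 0.0593 and 0.0599), and those of LIPE-AS1 and LINC00338 without line 2 (0.194 and 0.0974). Without line 2, the log2 value of TMEM161B-AS1 rested on line 1 with no distal read.

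Between the knockouts, 11 members used the proximal site more in the CFIm68 knockout and 7 used it less, beside 40.5% and 6.08% of all genes (46.6% in all). LBX1-AS1 used it for 97.1% and 90.9% in the CFIm68 knockout lines and 56.3% and 54.5% in the CFIm59 knockout lines (log2 3.72, SE 0.71, adjusted p = 1.57e-05). VPS9D1-AS1 used it for 89.2% and 90.0% in the CFIm68 knockout lines and 65.9% and 56.1% in the CFIm59 knockout lines (log2 2.52, SE 0.45, adjusted p = 5.1e-06). The groups do not overlap in either. OIP5-AS1 differed by log2 2.31 (SE 0.40, adjusted p = 3.18e-06) and ZSCAN16-AS1 by -3.49 (SE 0.45, adjusted p = 4.51e-09). Without CFIm59 knockout line 2, 6 members used the proximal site more, and LBX1-AS1 had log2 3.0 and 4.70 without CFIm68 knockout line 1 and line 2.

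**Figure D3:**
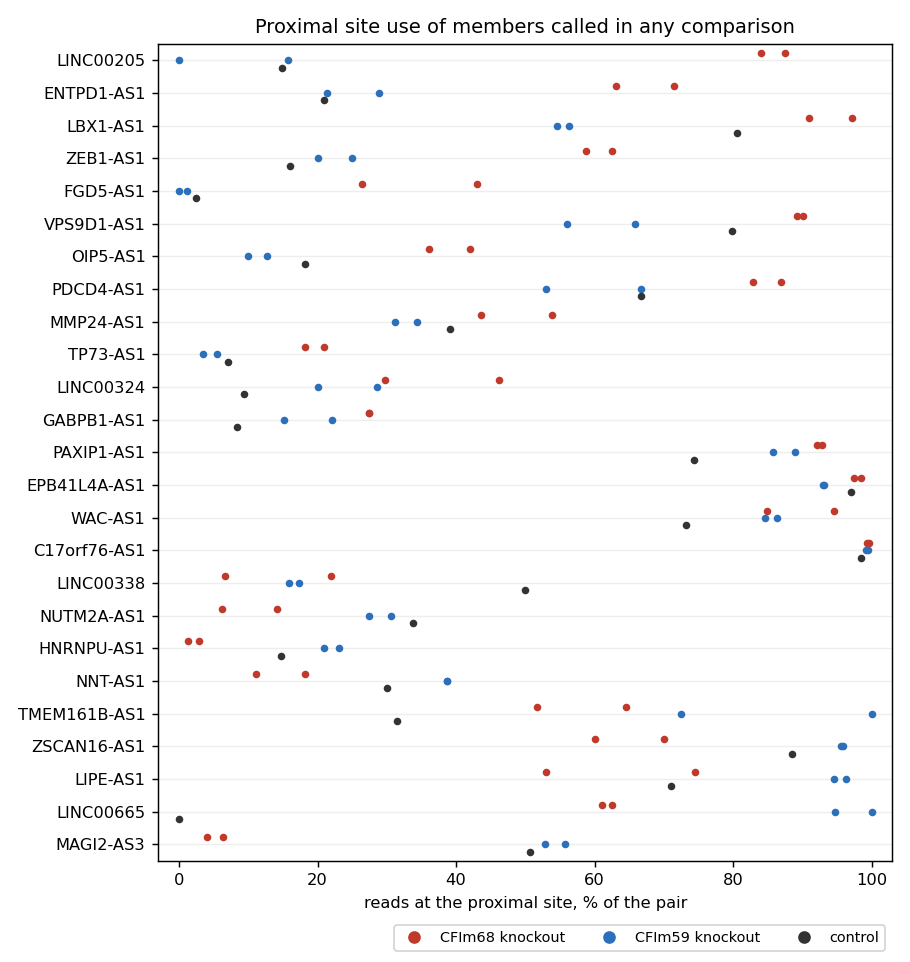
Reads at the proximal site as a percentage of both sites' reads, for members called in any of the 3 comparisons. Each point is 1 library (CFIm68 knockout above CFIm59 knockout above control within a row), and rows run from the largest rise to the largest fall, in percentage points, of the CFIm68 over the CFIm59 knockout. LINC00205 stands at 84.0% and 87.5% in the CFIm68 knockout lines, and MAGI2-AS3 at 6.32% and 4.05%.

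Of 19 noncoding RNAs and loci listed for a known role or microprotein, 16 had a read and 12 were members, with LINC-PINT listed in the table as MKLN1-AS1. LINC00657 (NORAD), OIP5-AS1, FGD5-AS1, HOXA-AS2, LINC00152 (CYTOR), TMPO-AS1, ZEB1-AS1, LINC00665 and MKLN1-AS1 form the first list, and LINC00493, LINC00998 and LINC00116 the second. Among these 12, LINC00665 and LINC00493 were called in level against the control, both in the CFIm59 knockout, where 13.8% of all genes were called. None of the 12 was called in the CFIm68 knockout, where 3.6% of all genes were, and 2 had an unadjusted p under 0.05 there (edgeR; DESeq2 called 0 members). The first list was chosen with earlier results of these data known, so its counts are a description only. Of the 5 with a tested pair of sites, FGD5-AS1, OIP5-AS1, ZEB1-AS1 and LINC00665 changed to proximal in the CFIm68 knockout. Over all genes tested for site use, 25% did. With DESeq2, FGD5-AS1 alone among these kept its call.

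The fifth was NORAD, an abundant cytoplasmic RNA known for a role in keeping chromosome number stable. Its level was 132 and 132 CPM in the CFIm68 knockout lines, 111 and 130 CPM in the CFIm59 knockout lines and 115 CPM in the control, not called different (adjusted p of 0.757 and 0.882 against the control). The tested pair was only 84 nt apart. Further upstream, sites over 1000 nt before the main site (34633547 on chromosome 20, minus strand, classed as intron by the authors) took 19.3% and 13.5% of its reads in the CFIm68 knockout lines (73 of 379 and 40 of 297, Wilson 95% intervals 15.6 to 23.5 and 10.0 to 17.8). They took 3.24% and 4.44% in the CFIm59 knockout lines (6 of 185 and 14 of 315) and 3.93% in the control (12 of 305, interval 2.26 to 6.75). Both CFIm68 knockout lines lay above the other 3 libraries. The 1000 nt limit was chosen after these values were seen, so no test is given.

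The site at 34637648, 4101 nt upstream of the main one, held 29 and 17 reads in the CFIm68 knockout lines, 0 and 1 in the CFIm59 knockout lines and 0 in the control.

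FGD5-AS1 showed the same kind of profile by its summed upstream sites. Sites over 1000 nt before its main site took 56.2% and 43.3% of its reads in the CFIm68 knockout lines, 6.45% and 7.41% in the CFIm59 knockout lines and 15.6% in the control (interval 11.6 to 20.7). Beside the tested site, one at 14986690 held 42 and 27 reads in the CFIm68 knockout lines, 1 and 1 in the CFIm59 knockout lines and 13 in the control.

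**Figure D4:**
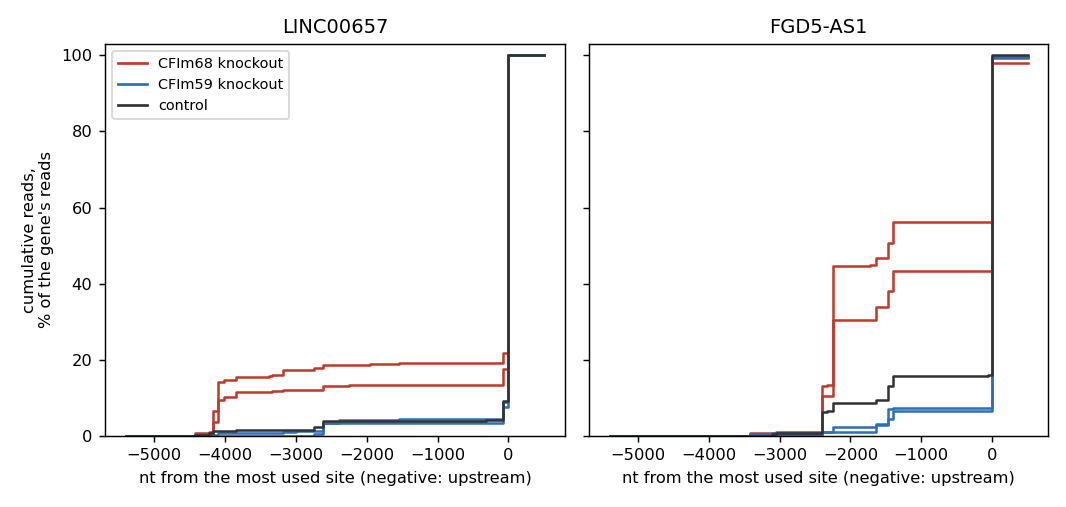
Cumulative share of a gene's reads along its poly(A) sites, by distance in nt from its most used site (negative is upstream), for LINC00657 (NORAD) and FGD5-AS1. Each line is 1 library. The CFIm68 knockout lines reach 19.3% and 13.5% of NORAD's reads over 1000 nt upstream, against 3.93% in the control.

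Antisense RNAs were read beside the genes they are named for. The named sense partner was in the table for 119 of 129 antisense members, on the opposite strand for 118. In GENCODE v29, 55 of these pairs were head to head, with starts within 1 kb, and 62 overlapped in another way. Both genes were tested in 109 pairs. Against the control, 4 antisense RNAs were called in the CFIm68 knockout and 4 partners (3.67% each, beside 3.6% of all genes), with 0 pairs where both were. PDCD4-AS1 and PAXIP1-AS1 rose, for example, while PDCD4 had a log2 difference of -0.06 (adjusted p = 0.945) and PAXIP1 -0.17 (adjusted p = 0.802).

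In the CFIm59 knockout, 11 antisense RNAs and 19 partners were called (10.1% and 17.4% of the pairs, beside 13.8% of all genes), with 4 pairs where both were, and those 4 had the same sign. These pairs are named because of that result. BOLA3-AS1 (now BOLA3-DT) had 4.2 and 4.14 CPM in the CFIm59 knockout lines and 13.9 CPM in the control (log2 -1.73, SE 0.49, adjusted p = 0.0115). BOLA3, a mitochondrial iron-sulphur cluster factor whose start lies 15 bases away in GENCODE v29, had 87.1 and 102 CPM in the CFIm59 knockout lines and 203 CPM in the control (log2 -1.10, adjusted p = 0.001). ZNF503-AS2 (log2 -1.03) fell with the zinc finger gene ZNF503 (-1.38), and FBXL19-AS1 (1.75) rose with FBXL19 (0.87), which encodes a CpG-binding F-box protein. GDNF had 4.2 and 4.14 CPM in the CFIm59 knockout lines and was listed at 0 in the control.

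The RefSeq promoter of BOLA3-DT, 250 bases before to 50 after its start at chr2:74147731-74148030 (GRCh38.p14, plus strand), is shown because it faces that of BOLA3. Each CG is in capitals.
BOLA3-DT: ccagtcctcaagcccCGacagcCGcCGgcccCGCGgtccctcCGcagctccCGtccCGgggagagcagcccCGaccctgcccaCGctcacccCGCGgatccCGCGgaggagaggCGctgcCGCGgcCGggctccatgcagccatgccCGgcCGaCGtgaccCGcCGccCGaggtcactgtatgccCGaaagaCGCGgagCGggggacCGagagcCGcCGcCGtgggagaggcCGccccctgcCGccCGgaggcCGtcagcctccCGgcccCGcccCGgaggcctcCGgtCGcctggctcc
It holds CG 41 times, and 6.69% of 35116 promoters hold as many. TATAAA, present on either strand in 11.5% of promoters, is on neither strand of it.

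Between the knockouts, 22 antisense RNAs and 19 partners were called (20.2% and 17.4% of the pairs, beside 19.7% of all genes), with 6 pairs where both were, all 6 with the same sign and named here for it. ZBED5-AS1 (log2 2.04) was higher in the CFIm68 knockout with ZBED5 (0.83), ATP6V0E2-AS1 (1.98) with ATP6V0E2 (0.94), and THAP7-AS1 (0.90) with THAP7 (0.82). ZNF503-AS2 (1.08) was higher with ZNF503 (0.77). MLLT4-AS1 (-1.31) was lower with MLLT4 (-0.82). HNRNPU-AS1 and HNRNPU (-0.89) were lower too, but lie on 1 strand. In the other 16 pairs with a called antisense RNA the partner was not called. Across the 109 pairs the Spearman rho between the log2 values was 0.44, a description over gene pairs that share libraries. Against the control it was lower, 0.13 for the CFIm68 knockout and 0.32 for the CFIm59 knockout.

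**Figure D5:**
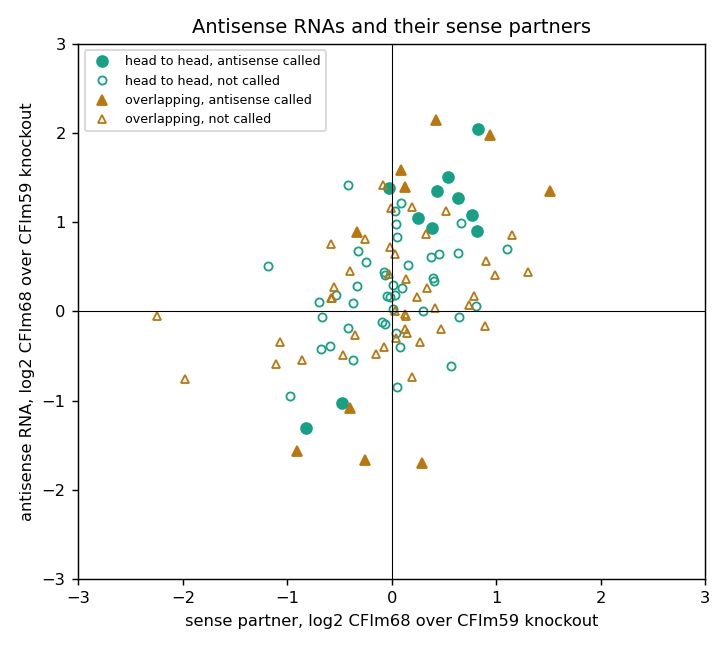
Log2 difference of the CFIm68 over the CFIm59 knockout for the antisense RNA (vertical axis) and its sense partner (horizontal axis), for the 107 tested pairs that were head to head (circles) or overlapping (triangles). Filled points are pairs whose antisense RNA was called. Of the 22 called in all 109 pairs, 19 had a partner of the same sign, HNRNPU-AS1 included, which lies on the strand of HNRNPU. Against the control these counts were 2 of 4 in the CFIm68 knockout and 9 of 11 in the CFIm59 knockout. The share with the same sign over all pairs was not counted.

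Levels of neighbouring genes were set beside the members' own. With 5 or more other tested genes within 1 Mb, 166 members could be read. In the CFIm59 knockout, 7 of 23 called members had neighbours whose median log2 difference from the control was beyond 0.5 in size, or 30.4%, against 17.5% of all 166 members. For LINC00493 (log2 -1.05) the median of 16 neighbours was -0.91, for LINC00094 (1.21) that of 20 neighbours was 1.03, and for ZNF503-AS2 (-1.03) that of 10 neighbours was -0.89. LINC00467 (-3.01) and LINC00324 (-2.57) had neighbour medians of -0.02 and 0.06. LINC01021 had no other tested gene in that window. Between the knockouts, 10 of 38 called members had neighbour medians beyond 0.5 (26.3%, against 16.3% of all 166), PAXIP1-AS1 among them with a median of 1.07 over 9 neighbours. In the CFIm68 knockout against the control it was 0 of 6, and 3.01% of all 166. The part of the neighbourhood in these results was not tested.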

How the data were processed

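The libraries were poly(A) site sequencing of total RNA from HEK293T cells. A deposited table gave, for each library, the unnormalized count of reads at every poly(A) site. Per the submitters' processing notes, TopHat2 2.1.0, deepTools 2.4 and hg19 were used. The sources used here do not give the handling of internal priming, site calling or the annotation release. Positions are as deposited. No molecular identifiers were counted, so intervals cover counting error only, and the control has 1 library.

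Counts were summed per gene at each site's first listing; later listings held 0 reads. Genes passing filterByExpr (14623) were scaled by TMM and fitted with edgeR 4.0.16 (R 4.3.3), quasi-likelihood, all 5 libraries in 1 fit, Benjamini-Hochberg adjustment, 2-sided, threshold 0.05. Site pairs (5869 genes) were fitted with library terms and site-by-group terms, so that a positive value is toward proximal. SEs were the size of the log2 value over the square root of F. The scripts were tested on simulated data. Alternatives were DESeq2 1.42.0, other size factors, other filters, shared sites left out, and each knockout line left out.

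Named genes were the 15 members with most reads, the 8 largest changes each way per level comparison averaging 10 or more reads a library, site use calls up to 12 a comparison, and fixed lists; others were named after their values were seen. Members, lists and tests were chosen with earlier results of these data known. Replicate numbers of the 2 knockouts did not pair the lines. Nothing says more than that lines of a genotype are separate cell lines, so p-values measure the spread between these lines.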

Additional observations from a re-analysis of the deposited data

How the results depend on the processing

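Counts of called members depended on the tool and on single lines. DESeq2 called 0 higher and 0 lower in the CFIm68 knockout against the control (10 at an unadjusted p under 0.05), 3 higher and 5 lower in the CFIm59 knockout against the control, and 7 higher and 5 lower between the knockouts. For site use it called 3 to proximal and 2 to distal in the CFIm68 knockout against the control, and 0 and 0 in the CFIm59 knockout (4 at an unadjusted p under 0.05, against 9 with edgeR). With no low-count filter, 8 members were lower in the CFIm68 knockout against the control. A stricter read minimum left 5 members tested for site use, with 3 to proximal and 2 to distal in the CFIm68 knockout against the control, 0 to proximal in the CFIm59 knockout against the control, and 3 and 2 between the knockouts. Last exon sites only left 28 members, with 7 to proximal and 3 to distal in the CFIm68 knockout against the control, 1 to proximal in the CFIm59 knockout, and 4 to distal between the knockouts. There other pairs of sites gave reversed log2 values: C17orf76-AS1 -0.71, HNRNPU-AS1 0.38 and NUTM2A-AS1 0.26 in the CFIm68 knockout against the control, and HNRNPU-AS1 0.30 and NUTM2A-AS1 0.51 between the knockouts. Leaving out 1 knockout line at a time gave 2 to 7 members higher and 2 to 6 lower in the CFIm68 knockout against the control, 9 to 17 higher and 10 to 18 lower in the CFIm59 knockout, and 16 to 24 higher and 6 to 20 lower between the knockouts. For site use it gave 7 to 13 to proximal and 5 to 5 to distal in the CFIm68 knockout, 1 to 3 to proximal and 0 to 1 toward distal in the CFIm59 knockout, and 6 to 12 to proximal and 6 to 7 to distal between the knockouts. Without a line, the lone one is assumed to vary like the other groups. The cause of these changes was not tested beyond the fewer members or libraries that enter. Other size factors and leaving out shared sites moved no count by over 1.5 times. With the replicate number as a block on the 4 knockout libraries, 25 members were higher and 21 lower in level, and 10 changed to proximal and 8 to distal, while deviations of same-numbered lines correlated at -0.02. The control has 1 library, so no alternative tests its own spread, and 69 members with under 100 reads limit what could be called.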
